A study of Mus musculus with 4 samples.

Results

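The transcription factor p53, encoded in mice by Trp53, and 9 genes known as its transcriptional targets (Mdm2, Cdkn1a, Ccng1, Plk2, Bax, Aen, Phlda3, Sesn2 and Zmat3) were followed in brains of mouse embryos labelled KO and WT. Members were chosen by name, and all 10 were found among the 19150 genes that both deposited tables list. MacroH2A is a histone H2A variant with a large extra domain, made from the genes H2afy and H2afy2. Whole-tissue RNA came from brains of C57BL/6 embryos at stage E13.5, 2 labelled WT (WT6 and WT8) and 2 labelled KO (KO2 and KO4), with no treatment named. The title of the series speaks of macroH2A deletion, but the labels give neither the gene targeted, nor the allele, nor whether the deletion was conditional. The authors paired KO2 with WT6 in one deposited table and KO4 with WT8 in the other. Sex-linked transcripts placed KO2 and WT6 as male and KO4 and WT8 as female, so that sex and deposited pair are the same split of the libraries. No member passed the test between the genotypes. The log2 fold changes of KO over WT lay between -0.38 (Phlda3) and 0.36 (Plk2), and the libraries of the genotypes did not overlap for 5 of the 10 genes, beside 39.4% of all genes tested. The 95% interval of Plk2, 0.10 to 0.62, left out 0, and that of Phlda3, -1.01 to 0.25, was the widest.

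Cells hold p53 at low activity because Mdm2, a ubiquitin ligase, binds it and marks it for destruction. DNA damage, stalled ribosomes and other stresses release p53, which then binds DNA as a tetramer and switches on genes that stop the cell cycle, repair DNA or start apoptosis; Mdm2 is itself such a target, which closes a feedback loop. In the embryonic brain, loss of progenitors after mitotic or genome defects is known to run through p53. Because p53 is controlled mainly at the level of protein, its transcript level does not measure its activity, and the transcripts of its targets are the usual readout.

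The p53 response element is built of a pair of half-sites of 10 bases. Promoter windows of 300 bases, 250 before and 50 after an annotated start (RefSeq, GRCm38.p6), were at hand for 9 of the 10 members, all except Zmat3. The half-site consensus was searched without mismatches; it reads alike on both strands, so that 1 search covers both. A match was present in the windows of 6 of these 9 members, which have 11 windows in all, with more than 1 for Cdkn1a and Aen. Of all 32851 windows, 8.36% hold one, which is a share of windows and not of genes. The match of Aen lies in overlapping windows and is shown once. The matched stretches are shown to let the members be compared by this motif, with each half-site in capitals and 20 bases on either side, 5′ to 3′ on the strand of the gene:
Cdkn1a, chr17:29090886-29090957, plus strand: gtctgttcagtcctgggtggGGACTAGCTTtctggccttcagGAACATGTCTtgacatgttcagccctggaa
Bax, chr7:45467070-45467119, minus strand: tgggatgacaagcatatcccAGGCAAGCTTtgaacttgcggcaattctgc
Aen, chr7:78895917-78895966, plus strand: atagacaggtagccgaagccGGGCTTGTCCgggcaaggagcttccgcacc
Mdm2, chr10:117710915-117710964, minus strand: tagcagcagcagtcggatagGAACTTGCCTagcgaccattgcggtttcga
Ccng1, chr11:40755442-40755491, minus strand: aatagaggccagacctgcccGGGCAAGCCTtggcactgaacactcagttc
Trp53, chr11:69580264-69580313, plus strand: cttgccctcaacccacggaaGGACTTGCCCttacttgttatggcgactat

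With no mismatch allowed, Cdkn1a was the only member with a pair of matched half-sites, separated by 12 bases. Of all windows, 0.0731% (24) hold such a pair with at most 13 bases between. Near matches were not searched for, so the capitals need not mark every half-site. The 10 bases directly after GAACATGTCT in Cdkn1a come near the consensus without matching it. So do the 10 bases directly before the match of Ccng1. The matched pair of Cdkn1a begins 73 bases before its upstream start. It lies 2863 bases before the downstream start, whose own window held no match. The windows of Plk2, Phlda3 and Sesn2 held no match, which says only that these letters are not in these windows. Binding of p53 was not analysed here, and the matches are a description of the sequence.

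Total read counts were between 16470090 and 18136745 per library. Xist had 6 and 19 reads in KO2 and WT6 and 8105 and 6094 in KO4 and WT8. For the check of the labels, H2afy had 1368 and 1267 reads in KO2 and KO4 against 5538 and 5593 in WT6 and WT8, which is -2.22 on the log2 scale (SE 0.10; adjusted p = 0.00167 by the quasi-likelihood test of edgeR), and H2afy2 stood at 0.08 (edgeR adjusted p = 0.799). H2afy was the 1 gene of 15708 tested that edgeR called at an adjusted p under 0.05, 0 genes being called higher and 0.00637% lower in KO. All 10 members passed the filter on low counts, with 95 to 3610 reads per library. In these whole-tissue libraries, fewer cells of a type and less RNA per cell cannot be told apart.

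Trp53 itself (ENSMUSG00000059552, chromosome 11, 69580359 to 69591873 on GRCm38, plus strand) was the most abundant member. Its level, in CPM (the read count divided by the size of the library, scaled for its composition), was 184 and 178 in the KO libraries KO2 and KO4 and 196 and 226 in the WT libraries WT6 and WT8. Both KO libraries lay below both WT libraries, with WT8 standing highest. The KO mean was 181 ± 4.24 CPM and the WT mean 211 ± 21.1 CPM (± SD, n = 2, as for all means here). The log2 fold change of KO over WT was -0.22 (SE 0.10, 95% interval -0.46 to 0.01, edgeR adjusted p = 0.743) and did not pass. It lay between -0.32 and -0.11 when each library was left out in turn. Wrap53, which lies head to head with Trp53 on the opposite strand with 103 bases between them, stood at -0.22 as well (edgeR adjusted p = 0.743). The sources used here do not say whether counting used strand, although the annotated spans of these neighbours do not overlap.

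Mdm2 (ENSMUSG00000020184, chromosome 10, 117688875 to 117710758, minus strand), the inhibitor that p53 induces, was nearly level between the genotypes. It measured 64.2 and 64.1 CPM in the KO libraries KO2 and KO4, and 62.3 and 56.2 CPM in the WT libraries WT6 and WT8. The KO libraries lay just above WT6, and WT8 was the lowest. KO over WT stood, on the log2 scale, at 0.11 (SE 0.09, 95% interval -0.10 to 0.33, edgeR adjusted p = 0.755), so that KO transcript was between 0.934 and 1.25 times that of WT within this interval. The fold was 0.19 without WT6 and 0.05 without WT8. Mdm4, the partner of Mdm2 in holding p53 inactive, stood likewise at 0.11 (edgeR adjusted p = 0.748).

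Among the targets that act on the cell cycle, the genotypes overlapped for Cdkn1a and not for Ccng1 and Plk2. Cdkn1a (ENSMUSG00000023067, chromosome 17, 29090979 to 29100722, plus strand) encodes p21, the inhibitor of cyclin-dependent kinases through which p53 halts the cycle. It measured 20.6 and 16.5 CPM in the KO libraries KO2 and KO4, and 17.7 and 25.0 CPM in the WT libraries WT6 and WT8. The female libraries were the lowest and the highest of all, with the male ones between them. On the log2 scale the difference was -0.21 (SE 0.20, 95% interval -0.68 to 0.27, edgeR adjusted p = 0.784), and it changed sign, to 0.07, without WT8. A gene model on the opposite strand, AC167363.2, shares 273 exon bases with Cdkn1a and has no count of its own in both tables, so reads of that stretch cannot be assigned with certainty.

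Ccng1 (ENSMUSG00000020326, chromosome 11, 40748552 to 40755311, minus strand), which encodes cyclin G1, measured 23.0 and 21.8 CPM in the KO libraries KO2 and KO4, and 20.4 and 20.2 CPM in the WT libraries WT6 and WT8. KO2 and KO4 were above WT6 and WT8 by a narrow margin. Between the genotypes the log2 fold change was 0.14 (SE 0.12, 95% interval -0.15 to 0.43, edgeR adjusted p = 0.768).

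Plk2 (ENSMUSG00000021701, chromosome 13, 110395046 to 110400844, plus strand) encodes a polo-like kinase of centriole duplication that is also known from activity-dependent signalling in neurons. It showed the clearest separation of the 10 genes, with 81.2 and 93.1 CPM in KO2 and KO4 beside 72.7 and 63.1 CPM in WT6 and WT8. KO2 and KO4 were above WT6 and WT8, the female pair being farther apart than the male pair. The KO mean was 87.2 ± 8.39 CPM and the WT mean 67.9 ± 6.79 CPM, and KO over WT was 0.36 on the log2 scale (SE 0.11, 95% interval 0.10 to 0.62). Plk2 was the single member with an unadjusted edgeR p under 0.05, a level reached by 4.70% of all genes. It did not pass (edgeR unadjusted p = 0.0141, adjusted p = 0.743). The fold stayed between 0.26 and 0.46 whichever library was left out.

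Neither target of the cell death branch separated the genotypes. Bax (ENSMUSG00000003873, chromosome 7, 45461697 to 45466898, minus strand) encodes the protein that opens the outer mitochondrial membrane in apoptosis. It measured 54.6 and 44.2 CPM in the KO libraries KO2 and KO4, and 50.7 and 60.6 CPM in the WT libraries WT6 and WT8. As with Cdkn1a, KO4 was the lowest and WT8 the highest. The log2 fold change was -0.17 (SE 0.14, 95% interval -0.49 to 0.15, edgeR adjusted p = 0.755). It moved to -0.33 without KO2 and to -0.03 without KO4. Another protein-coding model, Gm45808, shares 192 exon bases with Bax on the same strand, so these counts are uncertain to that extent.

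Aen (ENSMUSG00000030609, chromosome 7, 78895854 to 78911209, plus strand), which encodes an apoptosis-enhancing nuclease, had its highest and its lowest value in WT. It measured 49.7 and 51.6 CPM in the KO libraries KO2 and KO4, and 60.6 and 45.1 CPM in the WT libraries WT6 and WT8, so that the KO libraries lay between the WT libraries. KO over WT stood, on the log2 scale, at -0.06 (SE 0.14, 95% interval -0.40 to 0.28, edgeR adjusted p = 0.914), with a change of sign to 0.17 when WT6 was left out.

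Phlda3 and Sesn2, targets that act on growth signalling, were the least abundant members. Phlda3 (ENSMUSG00000041801, chromosome 1, 135766119 to 135769136, plus strand) encodes a small pleckstrin-homology protein that restrains Akt. It measured 8.68 and 5.19 CPM in the KO libraries KO2 and KO4, and 8.25 and 9.77 CPM in the WT libraries WT6 and WT8, on 159, 95, 142 and 156 reads. KO4 stood well below the other libraries, which lay close together. On the log2 scale the difference was -0.38 (SE 0.26, 95% interval -1.01 to 0.25, edgeR adjusted p = 0.743), and it was -0.05 without KO4.

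Sesn2 (ENSMUSG00000028893, chromosome 4, 132492032 to 132510501, minus strand) encodes a sestrin, a stress protein that senses leucine and dampens mTORC1. It measured 9.93 and 7.91 CPM in the KO libraries KO2 and KO4, and 9.07 and 12.4 CPM in the WT libraries WT6 and WT8, again with KO4 lowest and WT8 highest. The model Gm12981, annotated as antisense RNA though on the same strand, lies within its span and shares 0 exon bases with it. Between the genotypes the log2 fold change was -0.26 (SE 0.21, 95% interval -0.77 to 0.24, edgeR adjusted p = 0.757). Left without WT6 it was -0.48, and without WT8 it was -0.02.

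Zmat3 (ENSMUSG00000027663, chromosome 3, 32334792 to 32366014, minus strand), an RNA-binding zinc finger protein gene that acts in p53-dependent tumour suppression, was the steadiest member. It measured 43.9 and 46.2 CPM in the KO libraries KO2 and KO4, and 46.7 and 47.6 CPM in the WT libraries WT6 and WT8, and its highest library stood 1.08 times above its lowest. The KO libraries lay below the WT libraries, KO4 only just. Without the scaling for composition the genotypes overlapped. In the authors' deposited table, KO4 over WT8 stood at 0.020 on the log2 scale. The log2 fold change of KO over WT in the edgeR fit was -0.07 (SE 0.09, 95% interval -0.27 to 0.14, edgeR adjusted p = 0.838).

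**Figure D1:**
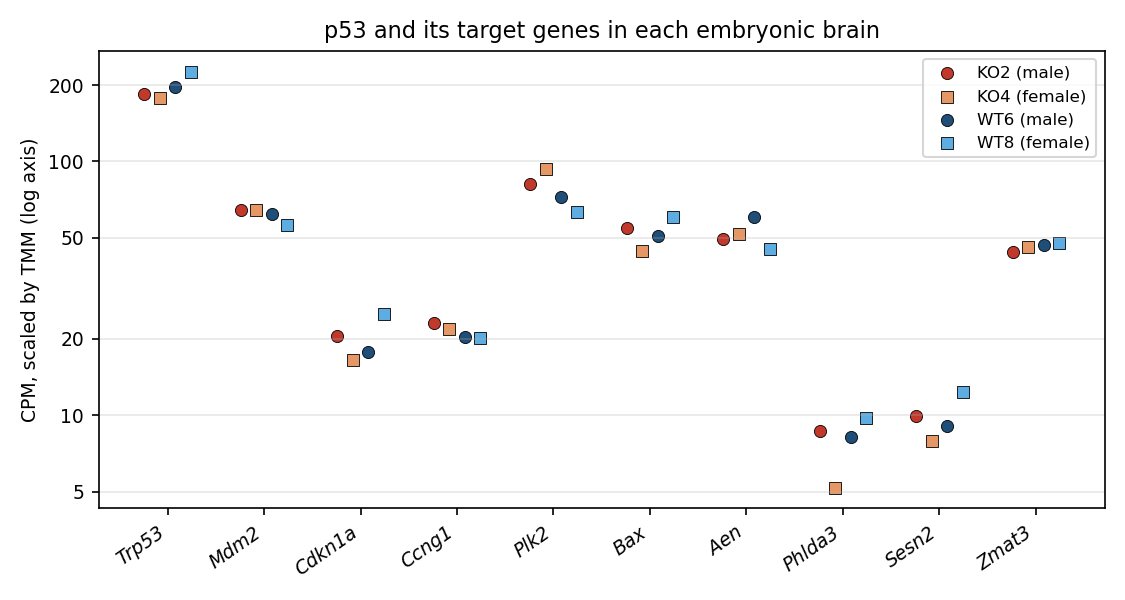
Level of each member in each library, in TMM-scaled CPM on a log axis, with KO libraries in red and orange and WT libraries in blue; circles are male and squares female embryos. KO4 is the lowest and WT8 the highest library for Trp53, Cdkn1a, Bax, Phlda3 and Sesn2, while Plk2 has both KO libraries, at 81.2 and 93.1, above both WT libraries.

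Over the 10 members, 0 were called higher and 0 lower, beside 0% and 0.00637% of all genes. Their adjusted p in edgeR ran from 0.743 to 0.914. Folds were above 0 for 3 members and below 0 for 7, with a median of -0.12 over the 10 and -0.07 over the 9 targets, against -0.01 over all genes tested. The KO libraries were both above the WT libraries for 3 members (Mdm2, Ccng1 and Plk2), as for 20.1% of all genes. They were both below for 2 (Trp53 and Zmat3), as for 19.4% of all genes. For Zmat3 this held only with the scaling for composition. The count of 5 in 10 without overlap stands beside 39.4% of all genes. The 95% intervals of the edgeR fit nevertheless limit what size of change is compatible with these libraries. They leave out a 2-fold change in either direction for 9 members, all except Phlda3, and a 1.5-fold change for 6 (Trp53, Mdm2, Ccng1, Bax, Aen and Zmat3). The share of all genes with such intervals was not computed, so these counts show nothing particular to the members. With 2 libraries of each genotype, p-values and intervals reflect only how far these samples spread, which may be technical. The edgeR fit takes the spread of each gene partly from that of all genes tested. The labels do not say whether the embryos came from separate litters.

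**Figure D2:**
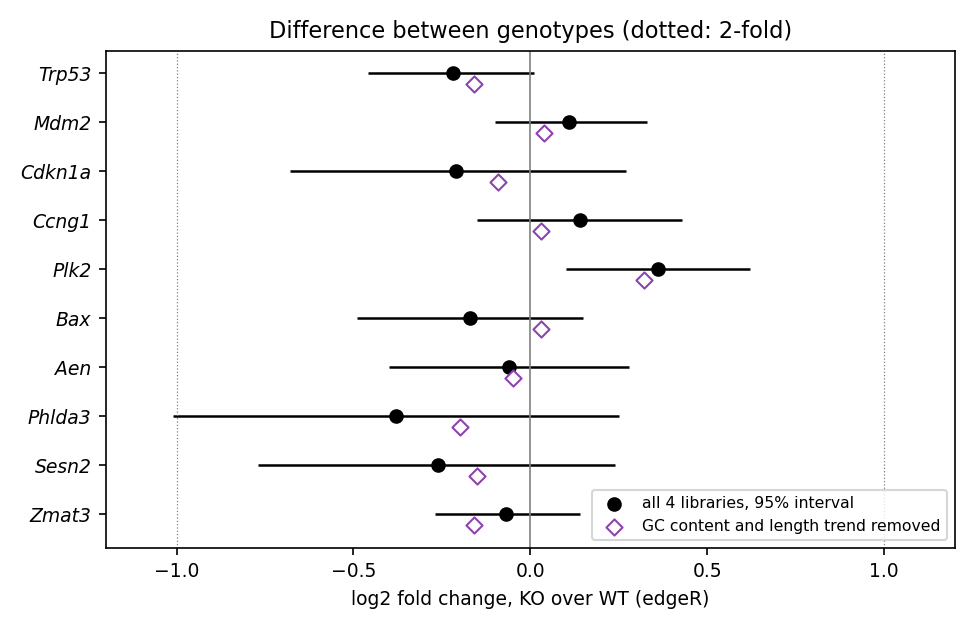
Log2 fold change of KO over WT for each member, from the edgeR fit on all 4 libraries (black points, bars are 95% intervals) and from the same fit after the GC content and length trend of each library was removed (open diamonds); dotted lines mark a 2-fold change. The interval of Plk2, 0.10 to 0.62, is the only one of the black bars that does not include 0.

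Within the 2 pairs of libraries, 5 members had ratios of opposite sign. Cdkn1a had a log2 ratio of 0.21 in KO2 over WT6 (95% counting interval -0.01 to 0.44) and of -0.60 in KO4 over WT8 (-0.82 to -0.38). Phlda3 had 0.07 and -0.91, Sesn2 0.13 and -0.65, and Bax 0.10 and -0.46. For these 4 genes the ratio in the male pair was within counting error of 0, and the ratio in the female pair was below 0 by more than counting error.

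Aen had the opposite signs, at -0.29 (-0.42 to -0.16) in the male pair and 0.20 (0.05 to 0.34) in the female pair, and was the 1 member with opposite signs beyond counting error in both. Opposite signs in the pairs were found for 5 of 10 members, beside 50.1% of all genes tested. Trp53, at -0.09 and -0.34, and Plk2, at 0.16 and 0.56, kept their sign and were farther from 0 in the female pair. There is 1 library for each genotype and sex, so a difference between the pairs could not be tested, and the counting intervals cover counting error only. Libraries of 1 genotype also differed beyond counting error over all genes. Their chi-square per degree of freedom was 9.68 for KO2 and KO4 and 15.89 for WT6 and WT8, where counting error alone gives about 1. The share of all genes beyond counting error in the pairs was not computed, so this trait is not particular to the members.

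**Figure D3:**
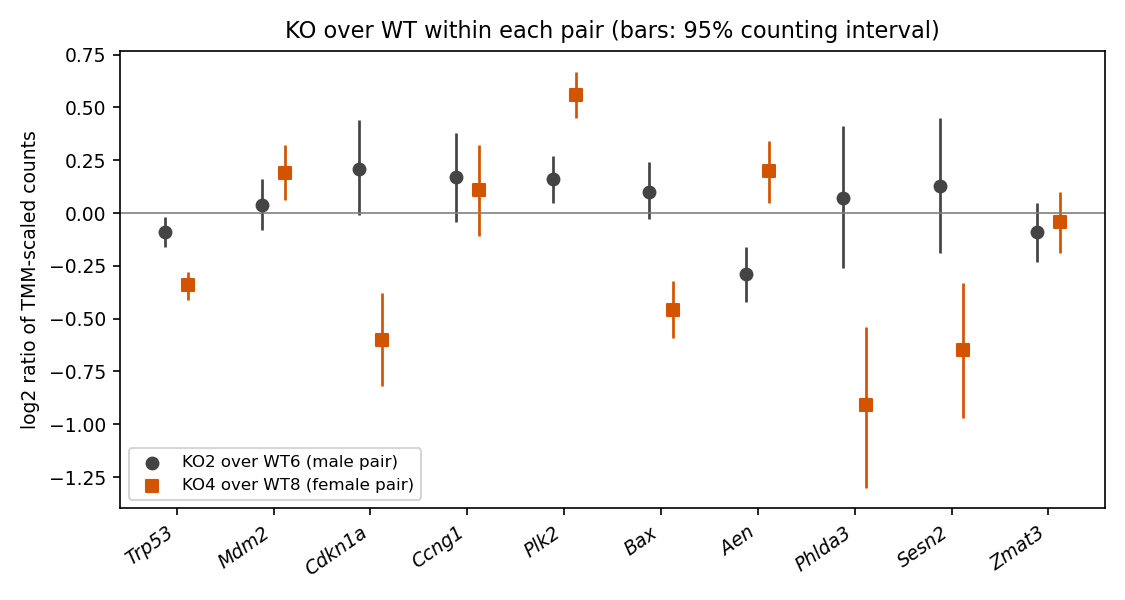
Log2 ratio of KO over WT within the male pair (KO2 over WT6, grey circles) and the female pair (KO4 over WT8, orange squares), each from 1 library of each genotype; bars are exact 95% intervals for counting error only. Cdkn1a, Bax, Phlda3 and Sesn2 lie between 0.07 and 0.21 in the male pair and between -0.91 and -0.46 in the female pair.

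In the authors' deposited tables, which compare 1 library with 1 library, 0 members carried the mark of significance, which 1.86% of genes carried in the table of KO2 and WT6 and 5.05% in that of KO4 and WT8. By the adjusted p of the authors' deposited table alone (under 0.05), 2 members passed for KO2 over WT6, where 17.3% of genes did so: Aen at a log2 fold change of -0.27 (adjusted p of 0.00035), among 8.67% of genes that were lower, and Plk2 at 0.17 (0.013), among 8.58% that were higher. For KO4 over WT8, 8 members passed in the authors' deposited table, where 39.0% of genes did so. Of these, 5 were lower (Trp53, Cdkn1a, Bax, Phlda3 and Sesn2) beside 15.2% of all genes, and 3 higher (Mdm2, Plk2 and Aen) beside 23.8%. The largest folds there were those of Phlda3, at 0.555, and Plk2, at 1.542 on the linear scale of the authors' deposited table. These p-values compare libraries and not genotypes. The shares are over all 20253 and 20424 genes of the deposited tables, genes with few reads included. The members had 95 to 3610 reads per library, so the members and all genes are not sets of like read number.

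Base composition moved with these ratios. Over 11369 genes at 5 CPM or more, the log2 ratio of KO4 over WT8 had a Spearman rho of -0.48 with the GC content of the longest transcript, and that of KO2 over WT6 one of -0.31; the genes share the same libraries and are not independent replicates. Between libraries of 1 genotype, rho was 0.24 for WT8 over WT6 and -0.15 for KO4 over KO2. The members span this range: Ccng1 had a GC content of 40.8%, Mdm2 46.2%, Zmat3 47.6% and Plk2 48.0%, below the median of 49.7% over all genes tested, while Aen had 51.6%, Trp53 53.3%, Cdkn1a 54.4%, Sesn2 58.7%, Phlda3 62.6% and Bax 63.5%.

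All 6 members above the median GC content had a KO over WT fold below 0, as did 71.4% of all genes above it. Of the 4 members below the median, 3 had a fold above 0, as did 69.1% of all genes there. When the GC content and length trend of each library was removed before the edgeR fit, an alternative chosen after seeing the data, Bax went from -0.17 to 0.03, Cdkn1a from -0.21 to -0.09, Phlda3 from -0.38 to -0.20, Mdm2 from 0.11 to 0.04 and Ccng1 from 0.14 to 0.03. Trp53 kept -0.16 of its -0.22 and Plk2 kept 0.32 of its 0.36 (edgeR adjusted p = 0.997 for each). Zmat3 went from -0.07 to -0.16. The trend was fitted on these same libraries, so a technical trend and a genotype difference that follows GC content cannot be told apart.

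**Figure D4:**
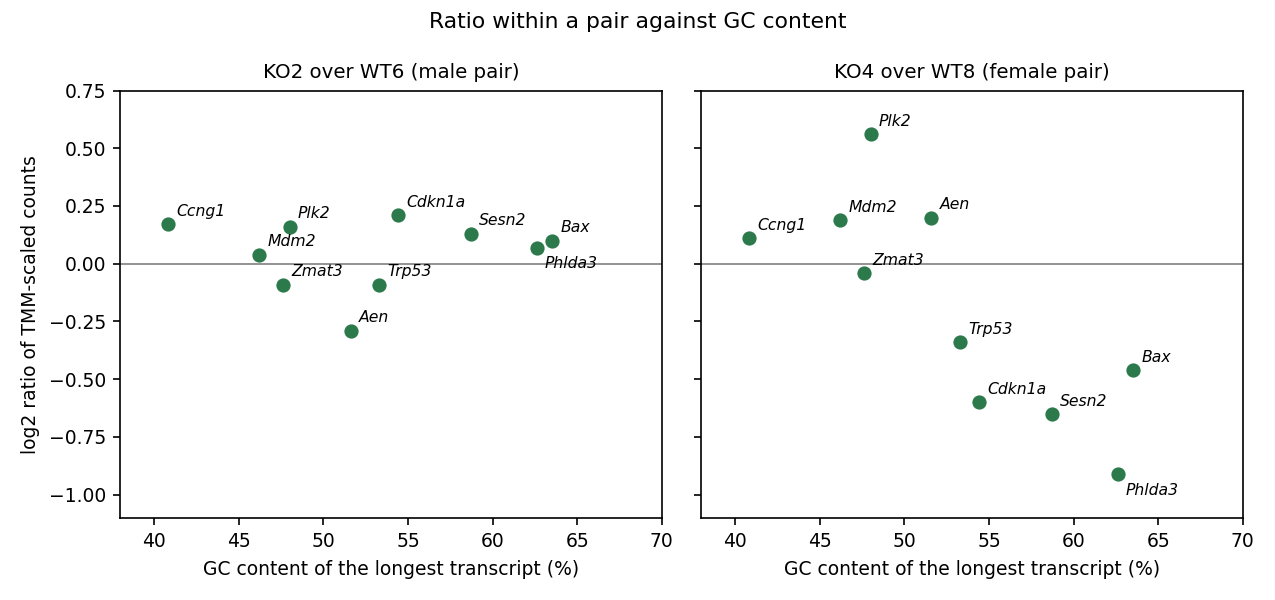
Log2 ratio of KO over WT within the male pair (left) and the female pair (right) against the GC content of each member's longest transcript, 1 point per gene. In the female pair 5 of the 6 members above the median GC content of 49.7% lie below 0, all except Aen, beside 66.1% of all genes above it, and 3 of the 4 others lie above 0, all except Zmat3, beside 67.6% of all genes there.

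Levels of different genes were compared after dividing by the length of the union of annotated exons. On this scale, in CPM per kilobase averaged over the 4 libraries, Trp53 stood at 48.5 and Bax at 33.3, followed by Plk2 at 17.3, Mdm2 at 12.1 and Aen at 8.92. The ranges of these 5 over the libraries did not overlap, that of Trp53 being 44.0 to 55.9 and that of Bax 28.0 to 38.4. Ccng1 at 6.08, Cdkn1a at 5.62 and Phlda3 at 5.11 formed a group whose library ranges overlapped, from 3.33 to 7.05 in all. Zmat3 at 4.03 had a range inside that of Phlda3, and Sesn2 was the lowest at 2.83, with a range of 2.28 to 3.57. A gene with long alternative exons that are little used, as Zmat3 with 11435 bases may be, is understated on this scale.

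Upstream regulators of p53 were not called either. Of 23 symbols listed, 21 were tested (Cop1 is another symbol of Rfwd2, and Cdkn2a is not used here, as it is not among the genes in both tables). In all, 0 were called, 16 had folds above 0, and the median was 0.11, beside -0.01 over all genes, and 0.00 with the GC content and length trend removed. Atm, the kinase that signals double-strand breaks to p53, had 70 and 101 reads in the KO libraries and 55 and 38 in the WT libraries, which put it at 0.74 on the log2 scale (SE 0.29; adjusted p = 0.743 by edgeR). Ep300, an acetyltransferase that coactivates p53, stood at 0.24, and Kat5, another acetyltransferase of the damage response, at -0.16. Of the p53 family, Trp73, known from Cajal-Retzius neurons, stood at -0.23, and Trp63 is not used here.

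Other known targets of p53 were not called. Of 49 listed, 46 were tested, 0 were called, and 0 had an unadjusted edgeR p under 0.05; 18 had folds above 0 and 28 below, with a median of -0.06. The KO libraries were both above the WT libraries for 7 of these and below them for 14, beside 20.1% and 19.4% of all genes. In the arrest and repair branch (15 tested, median -0.02), Gadd45a stood at -0.47, the repair gene Xpc at -0.23 and the translesion polymerase gene Polh at 0.36. In the cell death branch (13 tested, median -0.11), Pmaip1, which encodes the BH3 protein Noxa, had the largest fold at 1.05, on 27 and 17 reads in KO2 and KO4 and 6 and 13 in WT6 and WT8. Bbc3, which encodes Puma, stood at -0.27 and Siva1 at -0.20. In the metabolic and signalling branch (18 tested, median -0.07), the mTORC1 inhibitor gene Ddit4 stood at -0.18, the phosphatase gene Ptp4a3 at -0.23 and Sesn1, the sestrin gene related to Sesn2, at 0.26. Each gene named here had an edgeR adjusted p of 0.743.

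Genes downstream and beside the members were tested in the same fit. Of 10 cell cycle genes that p53 is known to lower through p21, 0 were called, 4 had folds above 0 and 6 below, and the median was -0.09, which turned to 0.08 without WT8. Ccna2 stood at 0.29, the checkpoint kinase gene Bub1 at 0.23 and Ccnb1 at 0.18, while Cdc20, an activator of the anaphase-promoting complex, stood at -0.22 and the mitotic kinase gene Plk1 at -0.19. Of 14 Bcl2 family and caspase genes, 0 were called and the median was -0.07. The caspase inhibitor gene Xiap stood at 0.32, the Bax relative Bok at -0.21 and Bad at -0.25. Of 18 paralogues of the members, 0 were called and the median was 0.01. Cdkn1c, which encodes p57, a relative of p21, stood at -0.52, Zmat5 at -0.44 and Ccng2, which encodes cyclin G2, at 0.24.

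**Figure D5:**
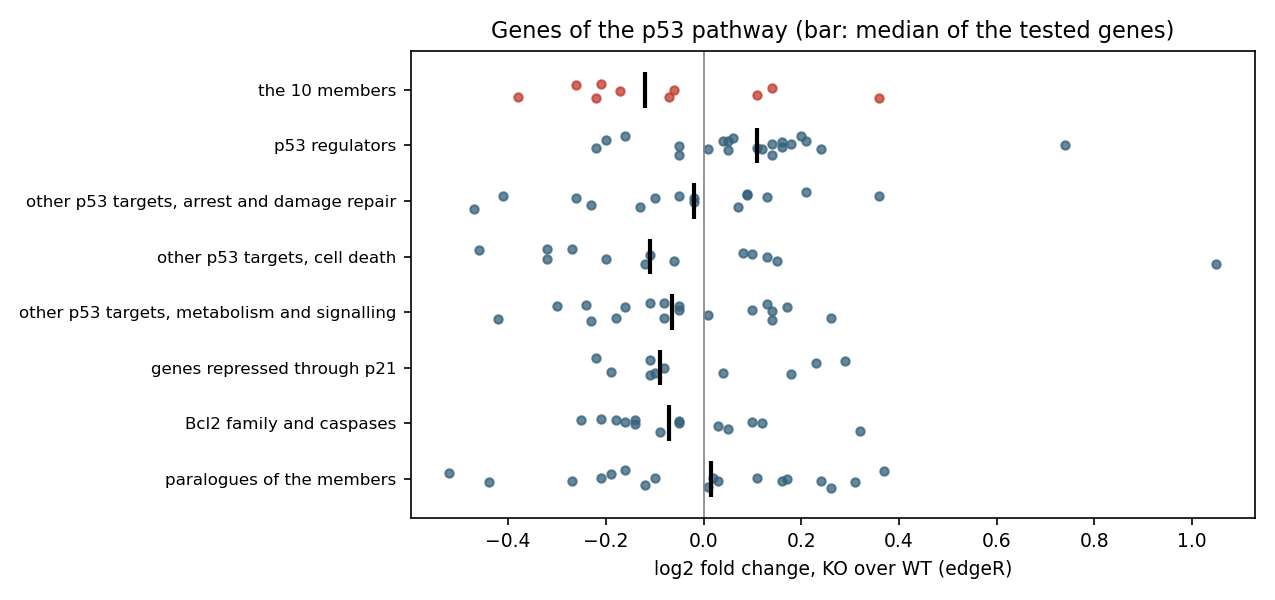
Log2 fold change of KO over WT (edgeR) of each tested gene in the fixed lists of the p53 pathway, 1 point per gene, with the 10 members in red; vertical bars are list medians and the vertical position within a row is random. Trp73, the 1 tested gene of the p53 family list, is not drawn. Medians of the lists drawn run from -0.12 for the members to 0.11 for the regulators, and Pmaip1, at 1.05, is the point farthest to the right.

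The genes whose profile over the 4 libraries was most like that of Trp53, by the root mean square difference of centred log2 CPM, were Ptpa (0.006), Scaf1 (0.006) and Tbc1d10b (0.007), and those most like Cdkn1a were Itga5 (0.008), Dennd1c (0.014) and Rpl37rt (0.016). Among the members at 10 CPM or more, Bax was the nearest to both, at 0.095 from Trp53 and 0.086 from Cdkn1a, and Plk2 the farthest from both, at 0.334 and 0.413. Phlda3 and Sesn2 were left out of this comparison of members by that limit. The centred log2 values of Sesn2 in KO2, KO4, WT6 and WT8 were 0.03, -0.29, -0.10 and 0.35. They lay closer to those of Cdkn1a, at 0.06, -0.26, -0.15 and 0.34, than did those of Bax, at 0.06, -0.24, -0.04 and 0.21. With 4 libraries, such likeness is a description of these samples.

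Markers of brain cells were abundant in all libraries: the summed level of the 6 neuronal markers was between 5600 and 6140 CPM and that of the 6 progenitor markers between 1940 and 2240 CPM. Markers of other tissues were low or, for blood, uneven. The 7 erythroid markers summed to 566 and 568 CPM in KO2 and KO4 and to 433 and 979 CPM in WT6 and WT8, led by Hba-a1, Hbb-y and Hba-x, and no marker of the 7 was at 0. WT8 was the highest library for 6 of the members, beside 32.8% of all genes tested, and had the highest summed level of each of the 7 marker lists. These sums follow the most abundant genes, such as Tubb3 at 3440 CPM in WT8, and single markers went both ways. WT8 was the highest library for Tubb3, Elavl3, Nes and Cldn5. It was the lowest for the neuronal markers Dcx and Map2, the progenitor marker Pax6 and the endothelial marker Kdr. The part of blood or of other cells in the members' values was not tested. The 8 microglia and macrophage markers summed to between 48.0 and 59.3 CPM, the 6 endothelial markers to between 106 and 116, the 6 meningeal markers to between 11.4 and 17.0 and the 3 epithelial markers to between 0.873 and 2.50. The 9 replication-dependent histone genes, a sign of RNA or library quality, summed to between 77.5 and 91.9 CPM. The sum was lowest in KO2 and highest in WT8, with Hist1h1b at 0 in KO2. It hides a split by deposited pair in genes with few reads. Hist1h1e had 6 and 13 reads in KO2 and WT6 against 35 and 31 in KO4 and WT8. Hist1h1d had 7 and 6 against 25 and 22, and Hist1h4d 13 and 17 against 42 and 41. The more abundant Hist1h1c, Hist1h2bc, Hist1h4i and Hist2h2be showed no such rise, nor did Hist1h1a. The cause of this split was not tested.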

How the data were processed

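The authors deposited 2 tables, each with whole-number read counts per gene for 1 KO and 1 WT library, per the file headers. Their normalized values are CPM, as found from the deposited values, and the tables give the authors' linear fold (ratio), its log2 and a p-value with an adjusted p-value, per the file headers; the test behind it is not stated. HTSeq 0.6.0, TopHat2 2.0.12, Bowtie2 2.2.3 and mm9 stand in the submitters' processing notes, but 91.4% and 91.5% of the positions are identical to GENCODE M21 on GRCm38, the build used here.

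Samples were grouped by genotype from their titles. Counts of the 19150 shared genes were tested in R 4.3.3 with edgeR 4.0.16 (quasi-likelihood, TMM, filterByExpr leaving 15708 genes, Benjamini-Hochberg over all, threshold 0.05) with genotype as the only term; the SE is the fold over the root of F. Replicates of a genotype differed beyond counting noise, so each counts as 1 sample. Pair ratios carry exact 95% binomial counting intervals. Alternatives were other scalings and filters, DESeq2 1.42.0, limma 3.58.1 (voom, and deposited CPM plus 0.5), pair or sex as a term, and each library left out.

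Genes named are the 10 members, those of each list with the smallest p (most abundant for marker lists), H2afy and H2afy2, overlapping genes and the nearest profiles; Wrap53, Mdm4 and list genes chosen for their role were added, and Cdc20 and Plk1 after their values were seen. Members and lists were chosen with earlier results of these data known.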

Additional observations from a re-analysis of the deposited data

Results flagged for a closer look

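For 5 members the KO over WT ratio pointed one way in the male pair and the other way in the female pair. The log2 ratio of the female pair minus that of the male pair was -0.82 for Cdkn1a, -0.56 for Bax, -0.99 for Phlda3 and -0.78 for Sesn2, each with a ratio above 0 in the male pair, and 0.48 for Aen, with a ratio below 0 there. These differences were not tested, as there is 1 library of each genotype in each sex, and sex and the deposited pair cannot be told apart. Opposite signs were found for 50.1% of all genes tested.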

How the results depend on the processing

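No member was called under any of the 14 alternatives (the deposited pair and sex are 1 split and gave the same values), whose lowest adjusted p for a member was 0.314 (without WT6), and 137 of 140 member folds kept their sign. Those that did not were Cdkn1a without WT8 (0.07, in a range of -0.44 to 0.07 over the fits without 1 library), Aen without WT6 (0.17, in a range of -0.25 to 0.17) and Bax with the GC content and length trend removed (0.03); the cause was not tested. Over all genes the count of calls, 1 in the edgeR fit, was 2 with library totals alone, 2 with limma on deposited CPM, 2 with the deposited pair as a block, 2 with sex as a term and 4 with DESeq2. Leaving out 1 library gave from 0 (without WT6) to 104 (without WT8, 67 higher and 37 lower), and 2 without KO4; such a fit takes its spread from the genotype with 2 libraries. The genotypes share no replicate number; the fit paired by deposited table, with the pair as a block, called 0 members. Of 126 list medians under the alternatives, 16 moved by more than 1 SD. This SD is that of the list's median centred log2 CPM between the libraries of 1 genotype, the larger of KO and WT being used. Without WT8 the median moved from -0.09 to 0.08 for the genes repressed through p21, from -0.02 to 0.01 for the arrest and repair targets, from -0.11 to -0.04 for the cell death targets and from -0.07 to -0.01 for the metabolic targets. Without WT6 it moved from 0.01 to -0.11 for the paralogues, and with limma on deposited CPM from -0.02 to 0.04 for the arrest and repair targets. With the GC content and length trend removed it moved from 0.11 to 0.00 for the regulators. The median of the cell death targets moved most often. It was -0.07 with library totals alone and with limma on deposited CPM, and -0.05 at a mean of at least 5 CPM. It was -0.04 with the GC content and length trend removed and -0.08 without KO4. The other moves were in the metabolic targets and in the Bcl2 family and caspase list. Phlda3 and Sesn2, on 95 to 198 reads, had the widest intervals.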
